A study of Mus musculus with 6 samples.

Results

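The transcripts described here are 10 output and feedback genes of the MAPK pathway, chosen by gene symbol with earlier results of these data known: Dusp4, Dusp6, Spry1, Spry2, Spry4, Spred1, Etv4, Etv5, Fosl1 and Egr1. All 10 were present among the 23951 genes of the deposited table. They were measured by RNA sequencing in 3 untreated mouse melanoma lines with 2 libraries each. B16-F1 is a line of low metastatic potential bought from a cell repository, B16-F1R2 was established from a lymph node metastasis, and B16-F1R2L from a lung metastasis of that lymph node lineage. Both metastatic lines were obtained from a different laboratory than B16-F1, and an effect of the line cannot be told apart from an effect of its source. All lines were grown in the same medium with fetal bovine serum. Whether the replicate libraries of a line were grown as separate cultures is not given in the sources used here, so every p-value measures only the spread between these libraries, which may be technical.

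In the MAPK pathway, growth factor receptors load RAS with GTP, and RAS activates the kinases RAF, MEK and ERK in turn. ERK raises the transcription of immediate early genes and of its own inhibitors, among them dual specificity phosphatases and Sprouty and Spred proteins, which act back on ERK or on RAS activation. In melanoma this cascade is often driven by mutation, and these transcripts are widely read as a sign of its activity.

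Values are FPKM, fragments scaled to transcript length and to library size, which can be compared between genes. Lines were compared with limma, a linear model that shares the spread across genes, on log2(FPKM + 0.1), for the 11379 genes with 1 FPKM or more in no fewer than 2 libraries. Genes with a Benjamini-Hochberg adjusted p under 0.05 over all 11379 genes are called higher or lower. Fold changes on this scale understate those of low genes. Per library, 12500000 to 14700000 reads were estimated from the lowest values, and the FPKM summed to 596657 to 672794. The 7 melanocyte markers summed to 14970 and 15007 FPKM in the B16-F1 libraries, 7909 and 8125 in those of B16-F1R2, and 8924 and 8933 in those of B16-F1R2L. The 5 fibroblast markers summed to at most 0.169 FPKM and the 4 epithelial markers to at most 0.276. Of the 6 immune markers, Ptprc, Cd3e, Itgam and Adgre1 (listed under its older symbol Emr1) were at 0 in all libraries, and the list summed to 1.01 to 2.67, nearly all of it Cd68. The 5 endothelial markers summed to 1.55 to 2.38, with Cdh5, Kdr and Lyve1 at 0 in all libraries. Pecam1 was listed at 0 in B16-F1 and had 0.758 and 0.752 FPKM in the B16-F1R2 pair and 1.09 and 1.26 in the B16-F1R2L pair. Prox1 went the other way, with 1.66 and 1.63 FPKM, 0.790 and 0.969, and 1.16 and 1.12 in the same order of lines, and was called lower in both.

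Every output and feedback gene with enough signal to be tested was lower in both metastatic lines. Among those above 1 FPKM throughout, Spry1 fell by the most and Spred1 by the least in both, with Dusp4, Dusp6 and Spry2 between them. Of the 10 genes, 6 passed the filter on low values (Dusp4, Dusp6, Spry1, Spry2, Spred1 and Etv5), and all 6 were called lower in B16-F1R2. In that line 55.4% of all tested genes were called, 28.2% as higher and 27.2% as lower. The same 6 were called lower in B16-F1R2L, where 56.7% of all tested genes were called, 29.5% as higher and 27.1% as lower. Both comparisons share the B16-F1 libraries. When every library was rescaled to the same FPKM sum, the 6 calls stood in both lines, while for B16-F1R2L the median of all genes moved from 0.017 to 0.13 and the share of higher genes among those called from 52.1% to 67.0%. For the 6 tested genes, Etv5 included, both libraries of each metastatic line lay below both B16-F1 libraries. Among all tested genes the shares that lay below and above in this way were 39.7% and 40.3% for B16-F1R2, and for B16-F1R2L they were 39.1% and 41.7%. Etv5 passed the filter only through the B16-F1 libraries, in which it was high, so its call adds nothing to the count, whereas the other 5 reached 1 FPKM in all 6 libraries. The median log2 fold change of these 5 was -0.92 in B16-F1R2 and -0.90 in B16-F1R2L, against 0.0046 and 0.017 over all tested genes. Since the genes were chosen with earlier results of these data known, the comparison with all tested genes is not an independent test. The 7 melanocyte markers moved alongside, with 6 of 7 called lower in each metastatic line. The exception was Mitf, with log2 fold changes of -0.15 in B16-F1R2, not called, and 0.40 in B16-F1R2L, called higher. Their part in these results was not tested. In bulk libraries, fewer cells that express a gene and less RNA per cell cannot be told apart.

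**Figure D1:**
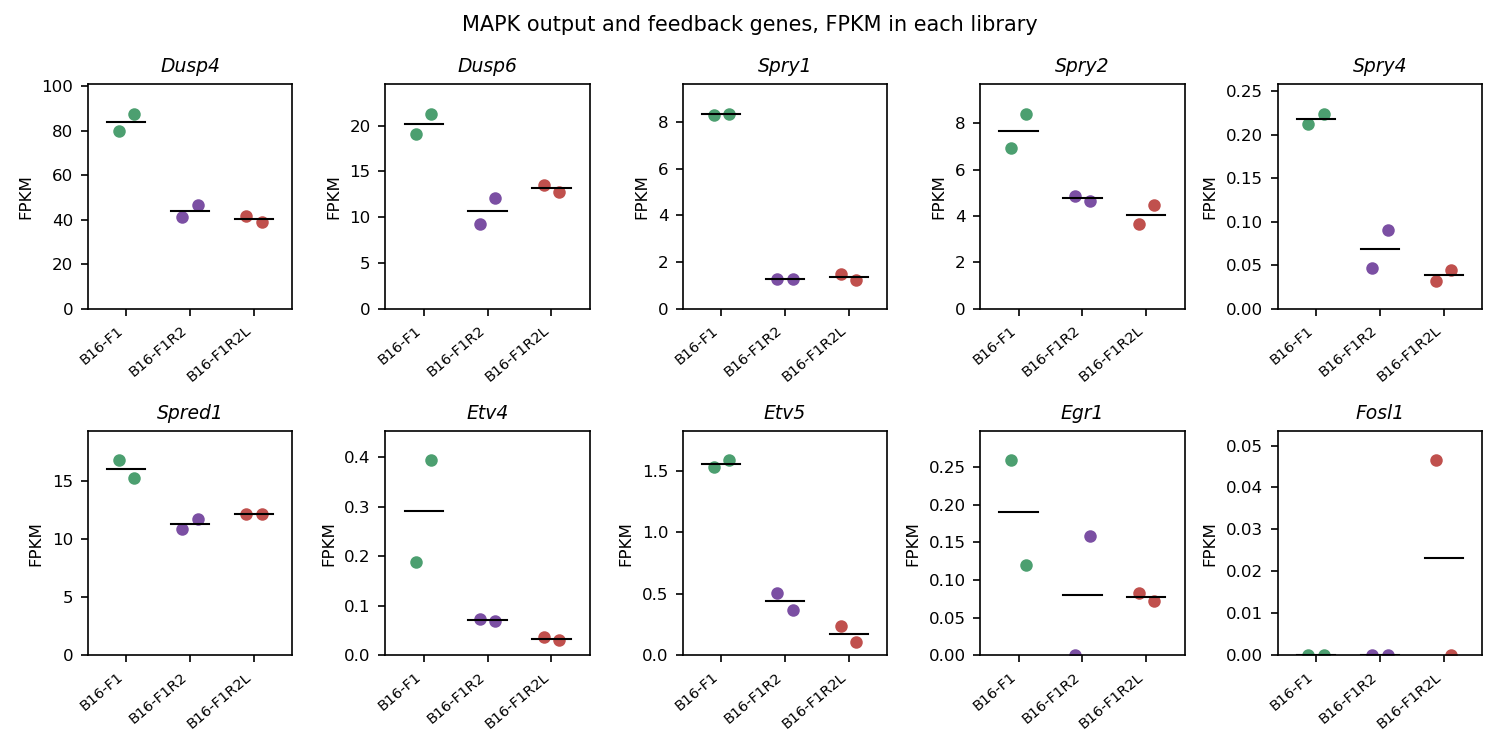
FPKM (y axis, linear, from 0) of the 10 output and feedback genes in each library of B16-F1 (green), B16-F1R2 (purple) and B16-F1R2L (red), with the mean of the 2 libraries as a black line. For Dusp4, Dusp6, Spry1, Spry2, Spry4, Spred1, Etv4 and Etv5 both B16-F1 libraries lie above all 4 libraries of the metastatic lines. Of these, Spry4 and Etv4 were not tested and rest on a few estimated reads in the metastatic lines. Etv5 passed the filter only through B16-F1. Taken 1 line at a time, 39.7% of all tested genes lay wholly below and 40.3% wholly above for the lymph node line. The lung line had 39.1% and 41.7%, and no share was computed for all 4 libraries together. Egr1 and Fosl1 reach at most 0.259 FPKM.

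Dusp4 and Dusp6 encode phosphatases that remove the activating phosphates of MAP kinases, Dusp4 (MKP-2) in the nucleus and Dusp6 (MKP-3) in the cytoplasm, where it prefers ERK. Dusp4 is a plus strand gene at 35870351 to 35882948 on chromosome 8 (NCBIM37, mm9), with 1 annotated transcript of 2740 bases in 4 exons. It had the highest level of the 10 genes, with 79.9 and 87.6 FPKM in the B16-F1 libraries, 41.4 and 46.7 in those of B16-F1R2, and 41.9 and 39.0 in those of B16-F1R2L. Both metastatic lines were thus at about the same level, and every B16-F1 library lay far above them. The log2 fold change was -0.93 in B16-F1R2 (standard error 0.078, adjusted p = 1.5e-04 from limma) and -1.05 in B16-F1R2L (adjusted p = 9.1e-05 from limma).

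Dusp6 lies on the plus strand of chromosome 10 from 98725865 to 98730122, with a longest transcript of 2796 bases in 3 exons. It was measured at 19.1 and 21.3 FPKM in the B16-F1 libraries, 9.28 and 12.1 in those of B16-F1R2, and 13.6 and 12.7 in those of B16-F1R2L. The lymph node line was lowest and the lung line lay between it and B16-F1, with no overlap between any of the lines. The difference between the metastatic lines was not called (adjusted p = 0.13 from limma). The log2 fold change was -0.92 in B16-F1R2 (standard error 0.13, adjusted p = 0.0013 from limma) and -0.61 in B16-F1R2L (adjusted p = 0.0070 from limma).

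The Sprouty genes encode inhibitors that are induced by receptor signalling and dampen the step from receptors to RAS and RAF. Spry1 fell most among the genes that reached 1 FPKM in all libraries. It lies on the plus strand of chromosome 3 from 37538869 to 37543520, with 4 annotated transcripts, the longest of 2773 bases in 2 exons. It had 8.31 and 8.36 FPKM in the B16-F1 libraries, 1.27 and 1.26 in those of B16-F1R2, and 1.47 and 1.25 in those of B16-F1R2L. The B16-F1 mean was 6.58 times that of B16-F1R2 and 6.14 times that of B16-F1R2L, and the metastatic lines overlapped. The log2 fold changes were -2.63 and -2.54 (standard error 0.12 for each, adjusted p = 1.3e-05 and 1.5e-05 from limma). Only 0.721% of the tested genes had a lower log2 fold change in B16-F1R2 and 0.729% in B16-F1R2L.

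Spry2, on the minus strand of chromosome 14 from 106291166 to 106296036, changed less. It had 6.95 and 8.41 FPKM in the B16-F1 libraries, 4.88 and 4.65 in those of B16-F1R2, and 3.65 and 4.47 in those of B16-F1R2L. The lines did not overlap, although the difference between the metastatic lines was not called. The log2 fold change was -0.67 in B16-F1R2 (standard error 0.13, adjusted p = 0.0059 from limma) and -0.90 in B16-F1R2L (adjusted p = 0.0017 from limma). Spry1 and Spry2 therefore stood at similar levels in B16-F1, with means of 8.34 and 7.68 FPKM, and apart in B16-F1R2, with 1.27 and 4.77, and in B16-F1R2L, with 1.36 and 4.06.

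Spry4 never reached 1 FPKM and was left untested. It had 0.212 and 0.224 FPKM in the B16-F1 libraries, 0.0468 and 0.0906 in those of B16-F1R2, and 0.0324 and 0.0444 in those of B16-F1R2L. At its annotated transcript of 4587 bases these values correspond to an estimated 13 reads in each B16-F1 library, 3 and 6 in those of B16-F1R2, and 2 and 3 in those of B16-F1R2L. Its order of lines was that of Spry2, at a level close to single reads.

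Spred1 encodes a membrane protein related to the Sproutys that binds neurofibromin and brings it to RAS, and its loss causes Legius syndrome in humans. It lies on the plus strand of chromosome 2 from 116947110 to 117008015, with a longest transcript of 6016 bases in 7 exons. It had 16.8 and 15.2 FPKM in the B16-F1 libraries, 10.8 and 11.7 in those of B16-F1R2, and 12.2 and 12.1 in those of B16-F1R2L. The fall was the smallest of the 6 tested genes, and the lines did not overlap, although the difference between the metastatic lines was not called. The log2 fold change was -0.50 in B16-F1R2 (standard error 0.071, adjusted p = 0.0014 from limma) and -0.39 in B16-F1R2L (adjusted p = 0.0041 from limma).

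Etv4 and Etv5 encode ETS transcription factors of the PEA3 group, whose transcripts follow ERK activity in many cells. Etv5 lies on the minus strand of chromosome 16 from 22381382 to 22439792, with 6 annotated transcripts, the longest of 3975 bases in 13 exons. It had 1.53 and 1.59 FPKM in the B16-F1 libraries, 0.503 and 0.372 in those of B16-F1R2, and 0.239 and 0.107 in those of B16-F1R2L. The levels stepped down from B16-F1 over the lymph node line to the lung line without overlap, although the last step was not called (adjusted p = 0.065 from limma). The log2 fold change was -1.64 in B16-F1R2 (standard error 0.32, adjusted p = 0.0052 from limma) and -2.65 in B16-F1R2L (adjusted p = 6.9e-04 from limma). With a pseudocount of 1, the values were -0.83 and -1.13. Etv5 rested on an estimated 81 and 79 reads in the B16-F1 libraries, 27 and 21 in those of B16-F1R2, and 13 and 6 in those of B16-F1R2L.

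Etv4 was under 1 FPKM throughout and was not tested. It had 0.188 and 0.394 FPKM in the B16-F1 libraries, 0.0734 and 0.0691 in those of B16-F1R2, and 0.0360 and 0.0309 in those of B16-F1R2L. The order of the lines was that of Etv5, but both B16-F1R2L values correspond to about 1 read at the longest transcript.

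Egr1 and Fosl1 are transcription factor genes that ERK switches on, Egr1 within minutes as an immediate early gene and Fosl1 (Fra-1, a partner in AP-1) with some delay. Egr1 had 0.259 and 0.120 FPKM in the B16-F1 libraries, 0 and 0.159 in those of B16-F1R2, and 0.0826 and 0.0718 in those of B16-F1R2L, and the values of B16-F1 and B16-F1R2 overlapped. Fosl1 was listed at 0 in 5 libraries and at 0.0465 FPKM in the first B16-F1R2L library, which corresponds to about 1 read. Both B16-F1R2L libraries of Egr1 lay below both B16-F1 libraries, on an estimated 3 reads in each. At this depth neither gene could be tested with the filter. Their exons overlap those of a gene on the opposite strand, Gm17507 for Egr1 and Ccdc85b for Fosl1, and whether the authors' counting used strand is not given in the sources used here. No such overlap was annotated for the other 8 genes, and no stretch of 50 bases of the 10 genes' protein-coding transcripts occurred in those of another gene.

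When the filter was dropped, 16483 genes were tested and Spry4 and Etv4 were called lower as well. Of all genes in that fit, 19.3% were called lower and 21.3% higher in B16-F1R2, and for B16-F1R2L the shares were 19.0% and 23.2%. The log2 fold changes in B16-F1R2 were -0.93 for Spry4 (adjusted p = 0.014 from limma) and -1.14 for Etv4 (adjusted p = 0.028 from limma), and those in B16-F1R2L were -1.20 and -1.50 (adjusted p = 0.0059 and 0.012 from limma). Egr1 missed the threshold in both lines, with intervals from -2.11 to 0.50 and from -1.97 to 0.63.

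**Figure D2:**
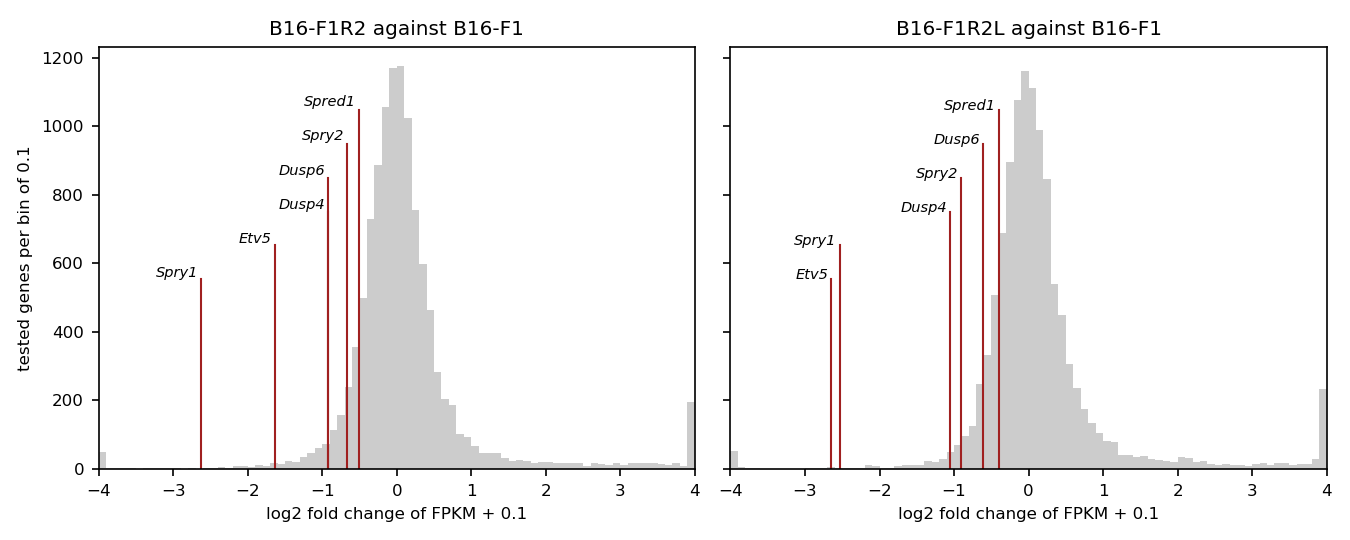
Number of tested genes (y axis) per bin of 0.1 in log2 fold change of FPKM + 0.1 (x axis) for each metastatic line against B16-F1, with the 6 tested output and feedback genes as red lines whose height has no meaning. The outermost bins hold all genes beyond them. Spry1 at -2.63 and -2.54 and Etv5 at -1.64 and -2.65 lie in the thin left tail, and Spred1 at -0.50 and -0.39 lies closest to the centre.

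Between the metastatic lines themselves no difference passed the test. None of the 6 tested genes was called between B16-F1R2L and B16-F1R2 with limma, where 22.6% of all tested genes were called, 12.1% as higher and 10.5% as lower. At an unadjusted p under 0.05, 2 were past the threshold, Dusp6 and Etv5. Dusp6 was higher in both B16-F1R2L libraries, with a log2 fold change of 0.31 (95% interval 0.0035 to 0.62, adjusted p = 0.13 from limma). Without the second B16-F1R2 library it was 0.50, with a single library left in that line. Etv5 was lower in both, with a log2 fold change of -1.01 (95% interval -1.77 to -0.25, adjusted p = 0.065 from limma), and without the first B16-F1R2L library -1.37. The intervals of the other 4 were -0.31 to 0.065 for Dusp4, -0.20 to 0.38 for Spry1, -0.55 to 0.090 for Spry2 and -0.060 to 0.29 for Spred1. Of the 6 tested genes, 2 (Spry2 and Etv5) lay lower in B16-F1R2L without overlap and 2 (Dusp6 and Spred1) higher, and of all tested genes 29.2% lay lower and 35.9% higher. When every library was rescaled to the same FPKM sum, the median of all genes moved from 0.022 to 0.13 in this comparison, and the share of higher genes among those called moved from 53.7% to 80.7%.

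**Figure D3:**
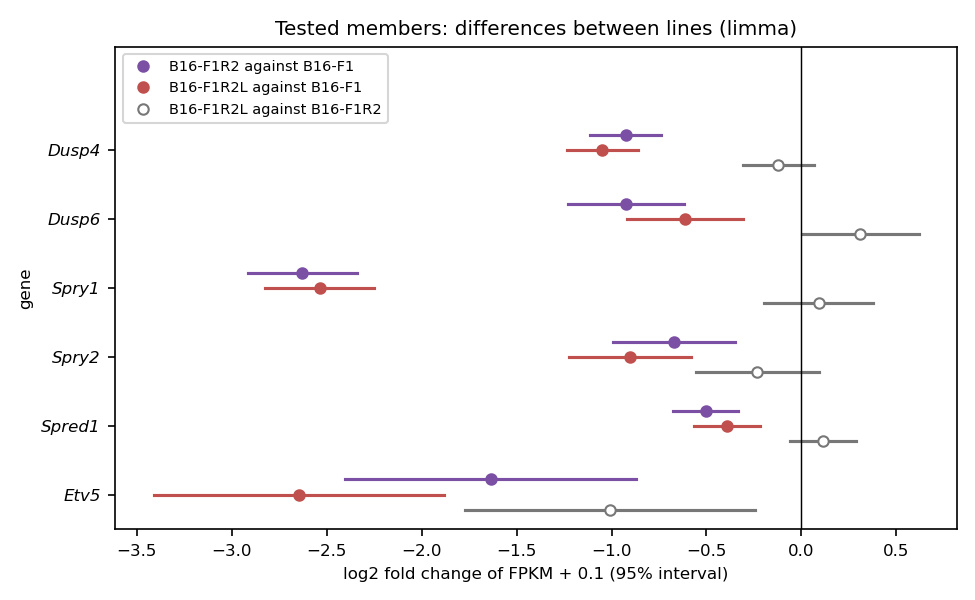
Log2 fold change of FPKM + 0.1 (x axis) with its 95% interval from limma for the 6 tested genes (y axis), for B16-F1R2 against B16-F1 (purple), B16-F1R2L against B16-F1 (red) and B16-F1R2L against B16-F1R2 (grey). Filled points have an adjusted p under 0.05 and open points do not. All purple and red intervals lie below 0, whereas the grey ones lie near or across it, apart from Etv5 at -1.01.

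The promoters of genes that fell together are shown for Spry1, Etv5 and Dusp6. Of the 10 genes, 5 (Dusp6, Spry1, Spry2, Spred1 and Etv5) had an entry in the RefSeq promoter table of build GRCm38.p6, which is not the build of the expression data. Dusp4, Spry4, Etv4, Fosl1 and Egr1 had none. Each sequence gives the 250 bases before the transcription start, 5′ to 3′ on the gene's strand, with CpG dinucleotides in capitals. They are chr3:37639697-37639946 (plus strand) for Spry1, chr16:22439571-22439820 (minus strand) for the upstream of 2 listed starts of Etv5, and chr10:99262981-99263230 (plus strand) for Dusp6.
Spry1: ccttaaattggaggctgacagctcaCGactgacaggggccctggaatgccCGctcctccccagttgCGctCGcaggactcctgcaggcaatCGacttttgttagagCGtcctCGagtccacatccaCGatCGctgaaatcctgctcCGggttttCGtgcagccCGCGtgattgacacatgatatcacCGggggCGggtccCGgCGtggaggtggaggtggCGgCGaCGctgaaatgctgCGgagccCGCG
Etv5: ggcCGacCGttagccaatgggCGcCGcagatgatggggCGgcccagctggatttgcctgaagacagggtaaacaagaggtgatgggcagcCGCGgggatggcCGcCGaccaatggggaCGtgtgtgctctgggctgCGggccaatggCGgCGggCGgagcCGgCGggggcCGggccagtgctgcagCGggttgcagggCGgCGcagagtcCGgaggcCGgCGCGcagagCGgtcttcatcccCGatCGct
Dusp6: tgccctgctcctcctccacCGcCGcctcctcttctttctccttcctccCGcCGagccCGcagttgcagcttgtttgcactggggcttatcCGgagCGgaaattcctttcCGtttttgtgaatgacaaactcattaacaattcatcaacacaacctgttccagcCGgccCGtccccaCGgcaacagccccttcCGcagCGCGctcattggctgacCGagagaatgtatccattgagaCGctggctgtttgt

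These windows were rich in CpG, with 23 CpG in Spry1, 27 in Etv5 and 16 in Dusp6, against a median of 6 over all 32851 promoters of the table. Their GC content was 62.4%, 71.2% and 56.4%, against a median of 52.4%. Spry2 and Spred1 had 23 and 31 CpG, so the extent of the fall and the CpG count did not follow the same order. Both strands were searched for AP-1 (TGANTCA), the CRE core (TGACGTC), an ETS site (CCGGAAG) and the CArG box of serum response factor. None of the 4 motifs was found in the windows of the 5 genes, and of all promoters 6.75%, 2.78%, 6.91% and 1.47% held them. This says only that these letters are absent from these windows.

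The other lists of the pathway are to be read against the shares of all tested genes, of which 28.2% were called higher and 27.2% lower in B16-F1R2, and 29.5% and 27.1% for B16-F1R2L. Of 21 RAS-RAF-MEK-ERK core and adaptor genes, all tested, 3 were called higher and 7 lower in B16-F1R2, with a median log2 fold change of -0.15. Fewer were called in all than the 55.4% of all tested genes, but the share called lower was above 27.2%. Map2k1 (MEK1) was not called in either line, with 61.0 to 68.5 FPKM over all 6 libraries. Mapk3 (ERK1) rose, from 94.3 and 93.0 FPKM in the pair of B16-F1 libraries to 121 and 108 in those of B16-F1R2 and 138 and 129 in those of B16-F1R2L (log2 fold changes 0.29 and 0.51, adjusted p = 0.011 and 0.0010 from limma), although the B16-F1R2 call was lost without either B16-F1 library (adjusted p = 0.052 and 0.063 from limma). Rps6ka2, which encodes the ERK substrate kinase RSK3, fell most of the list, from 4.61 and 4.38 FPKM in the pair of B16-F1 libraries to 1.73 and 1.76 in those of B16-F1R2 and 2.79 and 2.94 in those of B16-F1R2L, with log2 fold changes of -1.31 and -0.63 (adjusted p = 1.1e-04 and 0.0023 from limma). The adaptor gene Shc1 fell from 60.7 and 57.3 FPKM to 43.4 and 40.9 and to 47.8 and 47.2, with log2 fold changes of -0.48 and -0.31 (adjusted p = 4.0e-04 and 0.0027 from limma). Map2k1 and Mapk3 were picked after their values were seen. In B16-F1R2L, 3 genes of the core list were higher and 9 lower, with a median of -0.10, and the share called lower was above 27.1%. After rescaling to equal FPKM sums, however, 5 were higher and 4 lower.

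Of 8 genes for RAS GTPase activating proteins, which switch RAS off, 7 were tested, and 2 were called higher and 3 lower in B16-F1R2. The count of higher genes includes Rasa4, which had 0.370 and 0.176 FPKM in the B16-F1 libraries, 3.46 and 4.04 in those of B16-F1R2, and 5.56 and 4.93 in those of B16-F1R2L, and which passed the filter only through the lines in which it was high, so that its call adds nothing to the count. The list medians were -0.13 and 0.13, and in B16-F1R2L, 3 of its genes were higher and 2 lower.

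Among 8 other MAPK phosphatase genes, 6 were tested, of which 4 were called lower and 1 higher in B16-F1R2, and 2 lower and 1 higher in B16-F1R2L. Dusp2, a nuclear phosphatase, had 6.20 and 7.56 FPKM in the B16-F1 libraries, 3.71 and 3.80 in those of B16-F1R2, and 5.85 and 6.31 in those of B16-F1R2L. It was lower than B16-F1 in the lymph node line (log2 fold change -0.85, adjusted p = 0.0010 from limma), and the lung line was higher than the lymph node line (0.68, adjusted p = 0.012 from limma). This last call was lost without the first B16-F1R2 or the second B16-F1R2L library (adjusted p = 0.071 for both from limma). Dusp8 was also called lower in B16-F1R2, with a log2 fold change of -0.37, a call lost without either B16-F1 library or the second B16-F1R2 library (adjusted p from 0.083 to 0.11 from limma). The median of the list was -0.26 in B16-F1R2 and -0.17 in B16-F1R2L.

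Of 9 other inhibitors, 6 were tested, with 2 called lower and none higher in B16-F1R2 and 3 lower and none higher in B16-F1R2L. Socs3, an inhibitor of cytokine receptor signalling, had 1.92 and 2.07 FPKM in the B16-F1 libraries, 1.20 and 1.13 in those of B16-F1R2, and 1.20 and 1.22 in those of B16-F1R2L. Spred2, a relative of Spred1, fell from 9.84 and 10.4 FPKM to 7.62 and 8.21 and to 6.78 and 5.90 (log2 fold changes -0.35 and -0.67, adjusted p = 0.016 and 0.0012 from limma). Without the second B16-F1 or the first B16-F1R2 library its B16-F1R2 call was lost (adjusted p = 0.094 and 0.088 from limma).

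The other immediate early and AP-1 genes did not move in 1 direction. Of 18 genes, 11 were tested, with 4 higher and 4 lower in B16-F1R2 and 5 higher and 4 lower in B16-F1R2L, and medians of -0.017 and 0.082. After rescaling to equal FPKM sums, 5 were higher and 3 lower in B16-F1R2, and 5 higher and 2 lower in B16-F1R2L. Myc, a growth regulator, had 17.3 and 18.0 FPKM in the B16-F1 libraries and rose to 34.7 and 42.1 in those of B16-F1R2 and 40.9 and 36.0 in those of B16-F1R2L (log2 fold changes 1.11 and 1.12, adjusted p = 2.4e-04 for both from limma). Maff, a small MAF transcription factor gene, had 0.910 and 1.12 FPKM in the B16-F1 libraries, 2.08 and 1.86 in those of B16-F1R2, and 2.01 and 1.61 in those of B16-F1R2L. Both genes lay above B16-F1 in all 4 metastatic libraries. The B16-F1R2L call of Maff was lost without the first B16-F1 or the first B16-F1R2L library (adjusted p = 0.053 and 0.054 from limma).

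Of 7 other ETS factor genes, all tested, 2 were lower and none higher in B16-F1R2, and 3 were lower and 1 higher in B16-F1R2L. The share called lower in B16-F1R2 was near the 27.2% of all tested genes. Elk3 had 13.1 and 12.2 FPKM in the B16-F1 libraries, 6.14 and 5.90 in those of B16-F1R2, and 7.09 and 7.18 in those of B16-F1R2L (log2 fold changes -1.05 and -0.81, adjusted p = 5.7e-05 and 1.6e-04 from limma). Elk1 had log2 fold changes of -0.65 and -0.61. Elk1 and Elk3 encode partners of serum response factor that ERK phosphorylates.

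Of 4 further transcripts used as readouts of MEK and ERK, Phlda1 and Ccnd1 were tested and both were lower in both lines. Ccnd1, which encodes cyclin D1, had 64.5 and 63.7 FPKM in the B16-F1 libraries, 33.9 and 33.2 in those of B16-F1R2, and 22.1 and 21.4 in those of B16-F1R2L. It stepped down from line to line as Etv5 did, and here the difference between B16-F1R2L and B16-F1R2 passed the test (log2 fold change -0.63, adjusted p = 0.0013 from limma). Phlda1 fell by less, from 123 and 124 FPKM to 99.1 and 108 and to 103 and 91.2, with log2 fold changes of -0.26 and -0.35. Its B16-F1R2 call was lost without the variance trend (adjusted p = 0.054 from limma) and without either B16-F1 library or the first B16-F1R2 library (adjusted p from 0.090 to 0.12 from limma). Epha2 and Epha4, which encode ephrin receptors, stayed under 1 FPKM and were tested only without the filter. Epha2 went against the list, with 0.0918 and 0.120 FPKM in the B16-F1 libraries, 0.641 and 0.667 in those of B16-F1R2, and 0.647 and 0.492 in those of B16-F1R2L. Epha4, in the same order of lines, had 0.131 and 0.319, 0.0430 and 0.0511, and 0.0556 and 0.0505 FPKM. Without the filter, Epha2 was called higher (log2 fold changes 1.88 and 1.70, adjusted p = 0.0019 and 0.0025 from limma) and Epha4 lower (-1.08 and -1.03, adjusted p = 0.041 and 0.047 from limma).

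**Figure D4:**
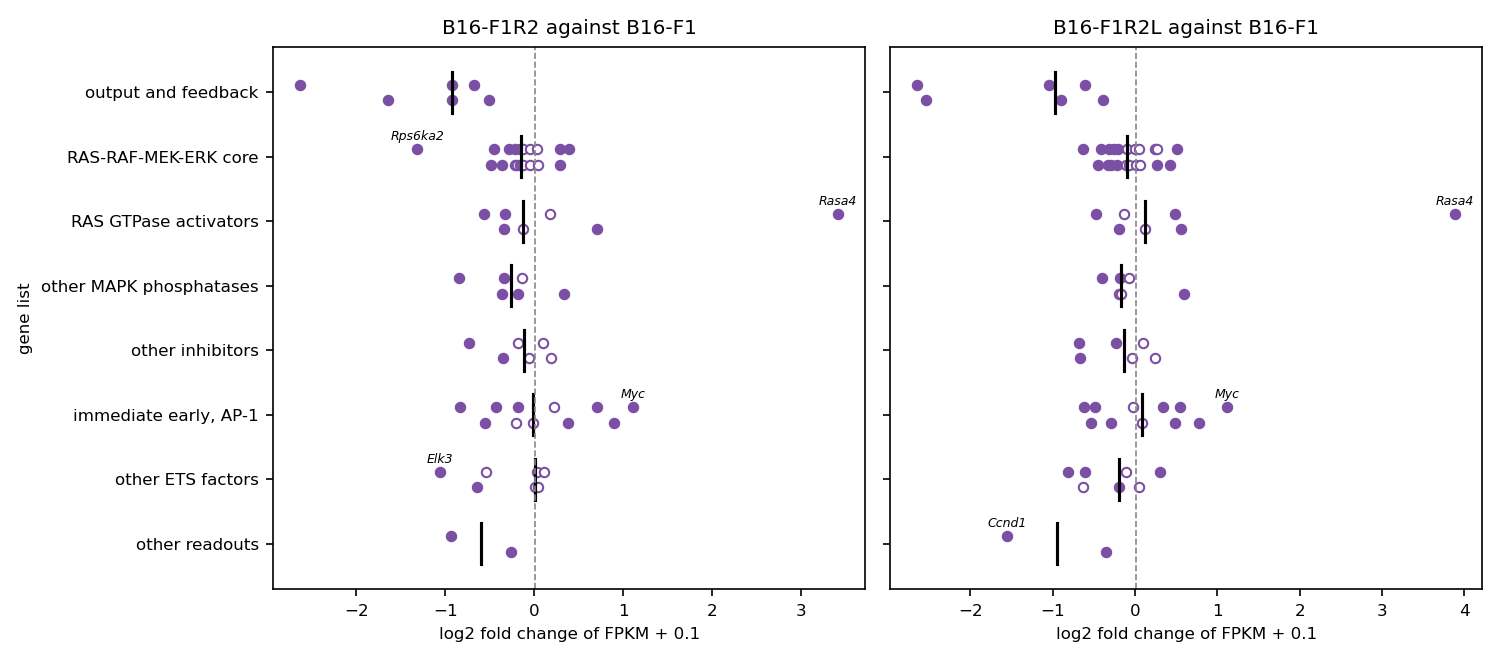
Log2 fold change of FPKM + 0.1 (x axis) of every tested gene of the 8 lists (y axis) in B16-F1R2 (left) and B16-F1R2L (right) against B16-F1. Filled points have an adjusted p under 0.05, open points do not, black bars are list medians, the dashed line is the median of all tested genes, and genes beyond 1 outside the output and feedback list are named. The black bars of the output and feedback genes include Etv5, which passed the filter only through B16-F1. Without it their medians are -0.92 and -0.90, and those of the core cascade are -0.15 and -0.10.

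On the scale of log2(FPKM + 0.1), Etv5 had line means farthest apart of the 6 tested genes, by 2.65, close to Spry1 at 2.63. With a pseudocount of 1 its log2 fold changes of -0.83 and -1.13 were smaller than those of Spry1, -2.04 and -1.99, and Etv5 had passed the filter only through B16-F1. The tested genes outside the lists whose levels followed it most closely over the 6 libraries were Spc24, Nubp2 and Ints5, each with Pearson's r of 1.00. Nubp2 had 57.9 and 57.7 FPKM in the B16-F1 libraries, 43.4 and 41.5 in those of B16-F1R2, and 37.8 and 32.5 in those of B16-F1R2L. The 6 libraries are 2 from each of 3 lines, so this likeness rests mainly on 3 levels. High values of r were likely among so many tested genes, and r does not reflect how far a gene fell.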

How the data were processed

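Polyadenylated RNA of 6 libraries was sequenced by the authors with a stranded kit, as single-end reads 50 bases long. Per the paper's methods and the submitters' processing notes, reads were aligned with TopHat2 2.0.10 and Bowtie 1.0.0 to NCBI37/mm9, with 2 mismatches and 20 multihits allowed, and Cuffnorm is named among the tools. The authors deposited FPKM values, with replicates not pooled. The annotation and the scaling that was applied are not given in the sources used here. FPKM are not counts, so no count test was made.

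Groups came from the cell line labels. The members and lists were chosen with earlier results of these data known. R 4.3.3 with limma 3.58.1 was used, with moderated variances that follow a trend on the mean level, fitted to log2(FPKM + 0.1) of all 6 libraries, without a replicate block, for genes of at least 1 FPKM in at least 2 libraries. With 2 libraries against 2, an exact permutation test could not go below p = 0.333. Python 3.11.15 served for positions, promoters and figures. Gene positions came from GENCODE vM1 on NCBIM37, the assembly that mm9 names. Depth was estimated as the reads at which the lowest FPKM of genes with 1 transcript equal 1 read, and read numbers of single genes are such estimates at the longest transcript. By rule, the genes named from each list other than the members were the 2 with the largest absolute log2 fold change among those called in B16-F1R2, plus Phlda1, Ccnd1, Epha2 and Epha4. Map2k1, Mapk3, Il17rd, Dusp9, Rasal1, Atf3 and Fosl2 were added after their values were seen. A gene that this rule names in the list of RAS GTPase activating proteins is not reported here. Alternatives were pseudocounts of 1 and 0.01, no filter or 5 FPKM, 2 scalings, no trend, only the 4 libraries compared, a replicate block, a log2 fold change of at least 1 as a further condition, and leaving out single libraries in turn. With a library left out, its line held a single library and the spread came from the other lines. Calls and p-values from such fits show only how far a result depends on that library. The fit was tested on simulated data.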

Additional observations from a re-analysis of the deposited data

How the results depend on the processing

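The counts of output and feedback genes called lower were 6 in B16-F1R2 and 6 in B16-F1R2L. They were 2 and 3 when a log2 fold change of at least 1 was also required, and 8 and 8 without a filter. They were 5 and 5 with at least 5 FPKM, which removes Etv5, and 6 and 6 under every other setting that kept both libraries of each line. All but the counts at 5 FPKM include Etv5, which passed the filter only through B16-F1. With the minimum log2 fold change, the other genes called were Spry1 in B16-F1R2, and Spry1 and Dusp4 in B16-F1R2L. Between B16-F1R2L and B16-F1R2 the counts higher and lower were each 0, and with 1 library left out they ranged from 0 to 1. Dusp6 was called higher without the second B16-F1R2 library, and Etv5 lower without the first B16-F1R2L library. Of 285 recomputed log2 fold changes of the 6 genes, no called value changed sign, 7 lost the call, all through the minimum log2 fold change, and 2 gained it. Spry1 between the metastatic lines, not called, was 0.090 and became -0.018 without the first B16-F1R2L library. With the replicate number as a block the counts were 6, 6 and 0. The labels share numbers between lines but no source says that they pair libraries, and the differences between replicates correlated by 0.052, -0.10 and 0.079 across genes for the 3 pairs of lines. Of 672 recomputed counts in the other lists, 142 moved by more than 1.5 times or to or from 0. Changes of 1 gene in small counts are among them, and the cause was not tested. The balance of higher and lower turned in B16-F1R2L for the core list after rescaling (3 and 9, then 5 and 4), for the RAS GTPase activating proteins at 5 FPKM (3 and 2, then 0 and 1) and for the immediate early genes without the first B16-F1 library (5 and 4, then 3 and 4).

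Over all genes, the minimum log2 fold change left 819 higher and 328 lower in B16-F1R2 of 3207 and 3098, 957 and 259 in B16-F1R2L of 3361 and 3086, and 116 and 24 between the metastatic lines of 1378 and 1190. For this last comparison the counts were 2019 and 484 after rescaling to equal sums, 874 and 644 from only the 4 libraries compared, 743 lower without a filter and 650 lower without a trend. After rescaling, 4253 and 2092 genes were called in B16-F1R2L against B16-F1 (67.0% higher, against 52.1%). With each library left out the counts between the metastatic lines ran from 297 to 904 higher and from 140 to 991 lower, lowest without the first B16-F1R2 library. Genes under about 1 FPKM, among them Spry4, Etv4, Egr1 and Fosl1, rest on a few estimated reads. The deposited values hold no counts, so no counting intervals were computed.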

Other observations

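Several genes of the pathway lists stayed under 1 FPKM and were tested only without the filter on low values. They are named here after their values were seen. Il17rd, which encodes the FGF receptor pathway inhibitor SEF, had 0.557 and 0.679 FPKM in the B16-F1 libraries, 0.0405 and 0.0544 in those of B16-F1R2, and 0.0503 and 0.0304 in those of B16-F1R2L. Its log2 fold changes were -2.28 and -2.35 (adjusted p = 7.4e-04 and 6.6e-04 from limma), so this inhibitor fell alongside Spry1. Dusp9, a phosphatase gene of the Dusp6 subfamily, had 0.196 and 0.307 FPKM in B16-F1, stood at 0 in the B16-F1R2 pair, and had 0.0315 and 0.0269 in B16-F1R2L (adjusted p = 0.0020 and 0.0041 from limma). Rasal1, another RAS GTPase activating protein gene, rose from 0.0606 and 0.128 FPKM to 0.426 and 0.314 in those of B16-F1R2 and 0.476 and 0.670 in those of B16-F1R2L (adjusted p = 0.019 and 0.0062 from limma).

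Atf3, a stress-induced member of the immediate early list, parted the metastatic lines and is also named after its values were seen. It had 5.06 and 5.27 FPKM in the B16-F1 libraries, 2.88 and 2.85 in those of B16-F1R2, and 6.63 and 6.54 in those of B16-F1R2L. Its log2 fold change between B16-F1R2L and B16-F1R2 was 1.17 (adjusted p = 0.0013 by limma). For Fosl2, an AP-1 gene, the value was -0.63 (adjusted p = 0.027 by limma), a call lost without the filter, after rescaling and without any 1 of the 4 metastatic libraries (adjusted p from 0.056 to 0.11 by limma), with 1.55 and 1.93 FPKM in the B16-F1 libraries, 2.87 and 2.91 in those of B16-F1R2, and 1.78 and 1.89 in those of B16-F1R2L.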
